A study of Drosophila melanogaster with 4 samples.

Results

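The regions described here are the peaks of Notch tagged with green fluorescent protein (GFP) on the euchromatic part of chromosome arm 3L of Drosophila melanogaster. They were taken from the authors' list of called peaks as all peaks on 3L whose midpoint lies at or before position 23500000 of release 5 of the fly genome, with no filter on score. There were 641 such peaks among 4198 in the whole list, a share of 15.3% (95% exact binomial interval 14.2 to 16.4%). Chromatin came from whole wandering larvae of the last instar (stage L3, sex unknown) of the strain Notch-GFP, which carries a transgene with the Notch genomic coding region at the landing site PBac{y[+]-attP-3B}VK00033. ChIP libraries (2, made with the rabbit polyclonal antibody GFP ab290) and input libraries (2) were both made from these larvae. Larvae were kept at 25 °C until the wandering stage, and fixation was in 1.8% formaldehyde for 15 min. The labels name no untagged larvae and no control antibody, and the protocol text speaks of y; bw cn sp flies although the strain label is Notch-GFP. All tissues of the larva are mixed, so a peak cannot be given to a cell type. The landing site VK00033 is known to lie on 3L, but its position was not used here and no peak was related to it.

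Notch is a receptor in the cell membrane that is cut when it meets a ligand of the Delta and Serrate kind on a neighbouring cell. Its intracellular part then enters the nucleus, joins the DNA-binding protein Su(H) and the coactivator Mastermind, and turns target genes on. In the larval imaginal discs and nervous system the pathway is best known for separating neighbouring cell fates, for drawing tissue borders and for keeping neural stem cells. Arm 3L carries several genes of the steroid response that drives the end of larval life. It also carries the cell death genes reaper, grim and hid, and the Bearded genes, which dampen Notch ligand activity.

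The deposited list gives each peak a first base, a last base and a score, and no value per library. The sources used here do not say which statistic the score is or what threshold lies behind the list. Scores are therefore the authors' own values and serve only to describe and rank peaks within this list. Library depth is unknown, and a stretch without a peak is therefore one in which nothing was called at that depth. Peaks are not replicates of a condition and no p-value is given. The intervals below cover counting error only and treat peaks, or genes, as independent, although neighbouring peaks come in groups and neighbouring genes share peaks. Peak sequences are not shown, since no genome of release 5 was used here.

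Peaks of 3L euchromatin were mostly narrow and weakly scored, with a small set of strong ones. Widths ran from 201 to 2988 bp around a median of 484 bp (95% interval 457 to 510 bp), and their quartiles were 325 and 765 bp. The median score was 25.3 (95% interval 23.1 to 28.3), with quartiles of 13.9 and 56.8 and a range of 6.93 to 364.1. In the rest of the list the median width was 481 bp (471 to 496 bp) and the median score was 26.2 (24.9 to 27.5). Both pairs of intervals overlap. A score over 100 was held by 88 of the 641 peaks on 3L (13.7%, interval 11.2 to 16.6%) and by 490 of the other 3557 (13.8%, 12.7 to 15.0%). That rest also holds peaks outside the large arms. On 2L, 2R, 3R and X together (2924 peaks) the median width was 500 bp (482 to 521 bp). Their median score was 25.0 (23.9 to 26.5), and 382 of them (13.1%, 11.9 to 14.3%) scored over 100. Of the 100 highest scored peaks of the whole list, 8 were among the 641 on 3L, which make up 15.3% of the list.

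Width and score rose together on 3L. Across the 641 peaks Spearman's rho was 0.755 and Pearson's r was 0.565, and across the rest of the list rho was 0.735 and r was 0.610. All of these peaks share libraries and a peak caller, so the values are a description. Among the narrowest 3L peaks (201 to 325 bp, n = 162) the median score was 12.0 and none of them scored over 100. The widest (770 to 2988 bp, n = 159) had a median score of 70.8 and held 57 of the 88 peaks over 100. The widest peak was not among the strongest. It measured 2988 bp, from 22815391 to 22818378 near jim, a zinc finger gene, and had a score of 89.0, above the arm's upper quartile of 56.8.

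**Figure D1:**
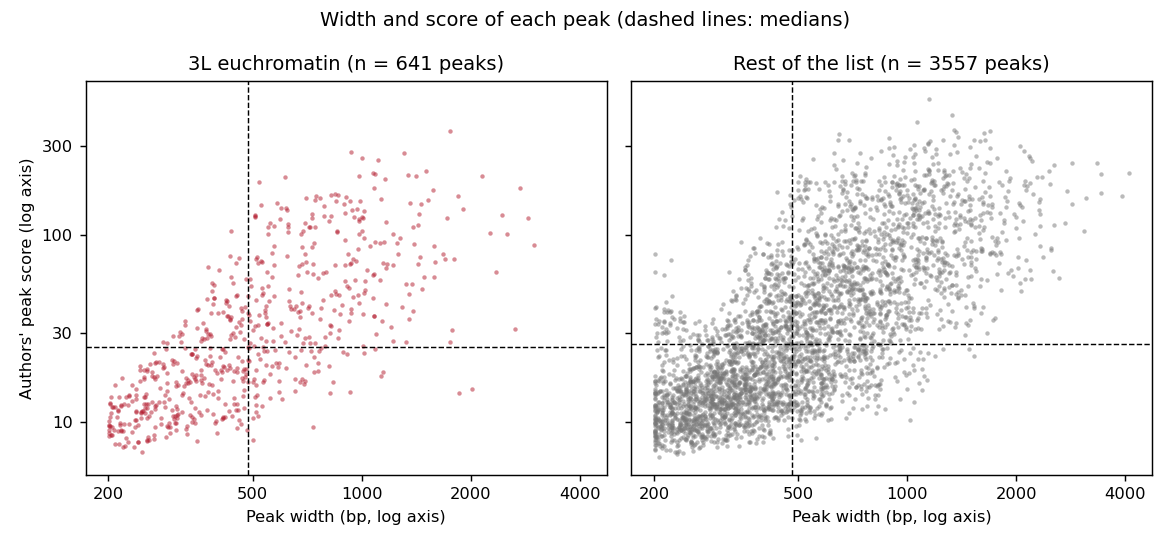
Each point is a peak, with its width (bp, log axis) against the authors' score (log axis), for 3L euchromatin on the left and the rest of the list on the right; dashed lines are the medians. Both clouds rise together, and the medians lie at 484 bp and 25.3 on 3L and at 481 bp and 26.2 in the rest.

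The density of peaks on 3L was at the low end of the large arms. Its euchromatin held 27.3 peaks per Mb (95% Poisson interval 25.2 to 29.5), against 31.0 per Mb (29.9 to 32.2) on 2L, 2R, 3R and X together. The single arms had 28.6 on 2L, 32.8 on 2R, 28.3 on 3R and 35.2 on X, and the interval for 3L overlaps those of 2L (26.5 to 30.9) and 3R (26.3 to 30.3). The lengths of those arms were taken up to the last base of their last peak, which makes their densities upper bounds, and they include the sequence next to the centromere. A block of tandem peaks is also counted on 2L, which had 658 peaks with it and 571 without. The place of 3L below 2L rests on that block. On 3L the peaks covered 1.67% of the sequence, against 1.97% on the other large arms.

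Peaks were spread unevenly along the arm. Among the 23 full windows of 1 Mb the number of peaks ran from 14 to 46, with a median of 27. The fewest lay between 12 and 13 Mb from the left end and the most between 17 and 18 Mb. In sections of 5 Mb the density was 30.8 per Mb (26.1 to 36.1) in the first, 25.4 (21.2 to 30.2) in the second, 21.6 (17.7 to 26.1) from 10 to 15 Mb and 33.6 (28.7 to 39.1) from 15 to 20 Mb. The last 3.5 Mb before the limit had 24.0 per Mb (19.1 to 29.7). The density intervals of the sections from 10 to 15 Mb and from 15 to 20 Mb do not overlap. Those of their median scores, 23.4 (19.7 to 30.1) and 27.6 (20.9 to 33.9), do overlap.

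The limit of the region fell in a thin stretch. The last peak inside, from 23331039 to 23332480, had a score of 129.4, and the peaks before it had 19.3, 65.0 and 90.9. The 8 peaks of 3L past the limit began at 23707537 with a score of 111.1. Their scores ran from 8.78 to 272.6 with a median of 163.6. These 8 are not part of what follows.

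Gene names can be given here only at a resolution of about 10 kb. The gene table used (RefSeq, on release 6 of the genome) is on a later release than the peaks, and no peak was converted. A gene counts as reached where a peak midpoint, read as it stands in release 5, comes within 10 kb of the gene's span in release 6. To see how far the releases differ, peak midpoints were moved by shifts of up to 20 kb in either direction and the peaks within 250 bp of either end of a gene were counted. In the first 5 Mb the most peaks, 56 of 154 (36.4%), matched at a shift of 0.3 kb, against a median of 21 (13.6%) over all shifts. In the 4 later sections the best shifts lay at 6.9, 6.6, 7.1 and 6.6 kb. They matched 43 of 127 peaks (33.9%), 33 of 108 (30.6%), 55 of 168 (32.7%) and 27 of 84 (32.1%), against median matches of 15.0%, 12.0%, 13.7% and 13.1%. Each best shift is the highest of all shifts tried, so its share is a maximum by choice. The shifts in all 5 sections were below 10 kb. At those shifts between 30.6 and 36.4% of the peaks lay this close to an end of a gene. The table has no strand, so starts and ends of genes could not be told apart. Going by the best shifts, a peak in the 4 later sections is read to the left of its release 6 place. A reach of 10 kb or 20 kb there takes in less sequence to the left of a gene and more to its right. Every statement below that a gene or peak was or was not in reach carries this unevenness.

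**Figure D2:**
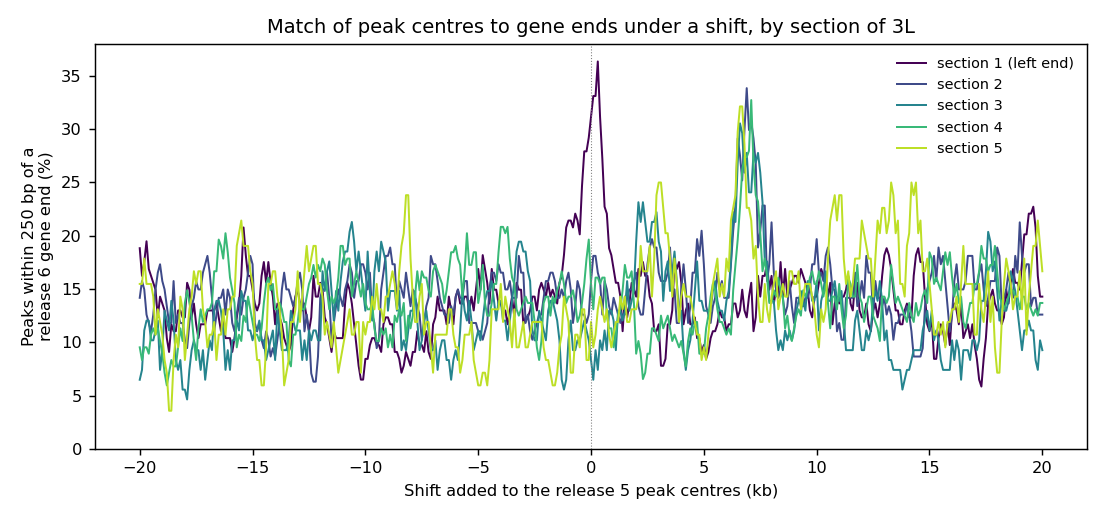
The share of 3L peaks whose centre lies within 250 bp of a release 6 gene end (%) is drawn against the shift added to the release 5 centres (kb), with a line for each of 5 consecutive sections of the arm. The first section has its maximum of 36.4% at 0.3 kb, and the other 4 have theirs, from 30.6 to 33.9%, between 6.6 and 7.1 kb.

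The strongest peak of the arm lay near Diap1, which encodes the inhibitor of apoptosis that holds caspases in check. It ran from 16044834 to 16046590 with a score of 364.1, rank 5 of the whole list. Mbs, a subunit of myosin phosphatase, and CG5895 were also within 10 kb. The 2 weaker peaks near Diap1 scored 17.7 and 10.4, so this region was carried by its single strong peak.

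The peak of rank 2 on the arm, from 18751953 to 18752885 with a score of 278.4, lay near ftz-f1, a nuclear receptor that gives tissues the competence to respond to ecdysone. Genes for a Mediator subunit (MED11) and for an autophagy enzyme (Atg3) were also in reach, with Nufip and CG6885. Rank 3 (318700 to 320004, score 277.6) lay near fwd, a phosphatidylinositol kinase gene, and Ptpmeg, a tyrosine phosphatase gene, among 5 genes. Ranks 4 and 7 stood side by side near klu and no other gene. They ran from 11003245 to 11004248 with a score of 258.2 and from 11001914 to 11002989 with a score of 214.8. klu encodes a zinc finger protein that acts in neuroblasts and sensory organs.

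Each of the remaining peaks of the top 10 had several genes in reach. Rank 5 (16370702 to 16371810, score 254.6) was near the cuticle genes Cpr72Ea, Cpr72Eb and Cpr72Ec and the RNA-binding protein gene roq. Rank 6 (7242029 to 7243534, score 221.1) had 11 genes within 10 kb, among them RpL18, a ribosomal protein gene, and Cdc27, a subunit gene of the anaphase-promoting complex. Near rank 8 (12117019 to 12118109, score 211.9) were yps, a Y-box protein gene, vers, ssp, Ir68b and CG11560. Rank 9 (22887215 to 22888555, score 209.6) lay near Chro, which encodes a chromatin protein of interbands, Ssl1, a subunit gene of the transcription factor TFIIH, and slif, an amino acid transporter gene. Rank 10 (10890853 to 10892264, score 208.9) was near Cpr67Fa1, Cpr67Fa2 and Cpr67Fb. Of these 10 peaks, 5 had no other peak within 5 kb of their midpoint, and those 5 held ranks 1, 3, 6, 9 and 10.

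Peaks came alone more often than in groups when midpoints closer than 5 kb were joined. Of the 641 peaks 359 stood alone, and the other 282 (44.0%, interval 40.1 to 47.9%) formed 112 groups. These were 77 pairs, 21 groups of 3 and 14 groups of 4 or more. On the other arms the share in groups was 50.0% on 2L (46.1 to 53.9%), 48.3% on 2R (44.5 to 52.1%), 44.3% on 3R (40.8 to 47.8%) and 53.9% on X (50.3 to 57.4%). Without the block of tandem peaks on 2L the share there was 42.6% (38.5 to 46.7%).

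The highest score in a group had a median of 55.2 and the second highest a median of 18.4. The highest is at or above the second by construction, so these values only describe the groups. Whether scores differ more within groups than among peaks of the arm at large was not tested. The ratio of the highest to the second highest had a median of 1.87 with quartiles of 1.34 and 4.42, and it was over 3 in 37 of the 112 groups (33.0%). In 5 groups at least 2 peaks scored over 100, and in 78 none did. The share with a close neighbour was alike among strong and weak peaks, with overlapping intervals. A neighbour under 5 kb away was found for 41 of the 88 peaks over 100 (46.6%, interval 35.9 to 57.5%) and for 145 of the 321 peaks at or below the arm's median score (45.2%, 39.6 to 50.8%).

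The group with most peaks lay near Eip74EF, the early ecdysone gene that encodes an ETS transcription factor. It held 9 peaks in 16.8 kb, from 17556245 to 17573061, and 4 of them scored over 100. In order along the arm the scores were 155.0, 105.1, 160.2, 14.0, 32.6, 18.3, 101.9, 14.0 and 23.9. A run of 3 strong peaks was thus followed by 3 weak ones, a strong one of 2519 bp and 2 more weak ones. Jon74E, CycT and CG7542 were also in reach.

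The other 4 of the 5 groups with most peaks had 5 peaks each. The group from 7797864 to 7809186 lay near Pdp1, a basic leucine zipper gene of the circadian clock and of larval growth, and CG32369. Its scores were 49.2, 10.6, 158.6, 192.5 and 45.7, with both strong peaks next to each other. The other 3 groups had no peak over 100. The group from 15094477 to 15101565, near the centrosome gene Plp and the CTP synthase gene Ctps among others, reached 79.6. The group from 10844506 to 10851052 reached 52.1 near tna, a gene that interacts with the trithorax group. The last, from 11282209 to 11290377 near Dyro, stayed at or below 31.8.

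**Figure D3:**
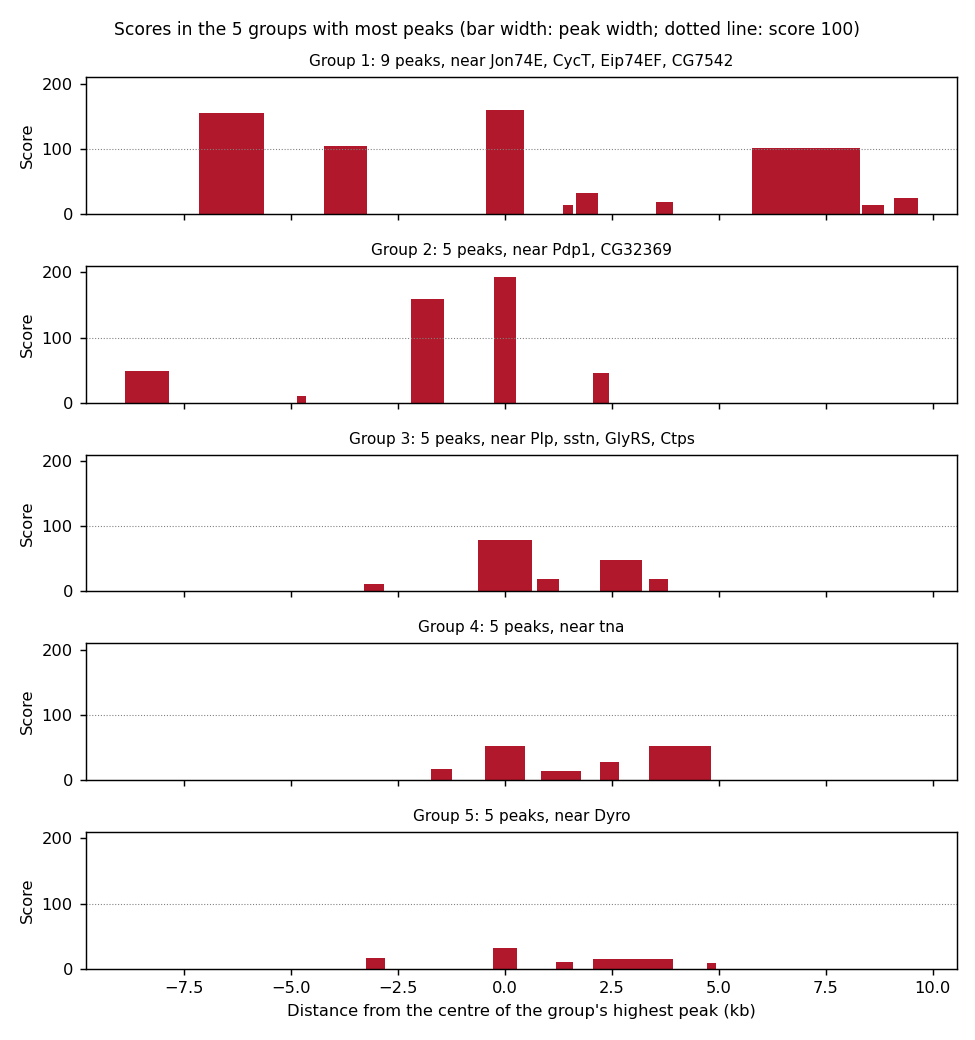
Each panel is one of the 5 groups with most peaks, with the distance from the centre of its highest peak (kb) against the authors' score; a bar is as wide as its peak, and the dotted line marks a score of 100. The group near Eip74EF has 4 bars over that line, the group near Pdp1 has 2, and the other 3 have none.

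Crowding was also seen in fixed windows. Of 470 windows of 50 kb, 183 (38.9%) held no peak, and the 22 windows with 5 or more peaks held 141 peaks (22.0% of the 641). The most crowded window, from 17550001 to 17600000 at Eip74EF, held 12 peaks that covered 20.0% of it. The windows from 600001 to 650000 and from 7800001 to 7850000 held 8 peaks each. So did the windows from 18750001 to 18800000, at ftz-f1, and from 21000001 to 21050000. The last of these lies at skd, the gene of a Mediator subunit, whose 6 peaks scored 32.6, 74.6, 71.9, 87.3, 47.8 and 123.8. All 6 skd peaks scored above the arm's median of 25.3. The peak at 123.8 was the second widest of the arm, 2867 bp from 21017709 to 21020575. Next in width was a peak of 2725 bp from 626024 to 628748 with a score of 180.5, which had no protein-coding gene within 10 kb.

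The longest stretch without a peak spanned 435.3 kb, from 18179234 to 18614542. The cell death genes rpr, grim and skl were inside it, at least 10 kb from both ends, as were the allatostatin receptor genes AstC-R1 and AstC-R2. The second, 429.9 kb from 9848151 to 10278084, contained Dronc, the initiator caspase gene, among 31 protein-coding genes. The next, 429.2 kb from 4841267 to 5270436, contained 24 protein-coding genes, among them Srp54k, a signal recognition particle gene. Gaps of over 100 kb between neighbouring peaks numbered 56.

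A peak lay within 10 kb of 1774 of 3429 annotated genes of 3L (51.7%), which is the background for every count of genes below. Points set every 10 kb along the arm were within 10 kb of a peak in 35.1% of cases (825 of 2349). A gene's span adds to its reach, so these shares are not on the same footing. A peak had a median of 4 genes within 10 kb (quartiles 2 and 6), against 3 (1 and 5) for the evenly spaced points. No gene was in reach of 9 of the 641 peaks (1.40%), against 111 of the 2349 points (4.73%). Peaks over 100 and peaks at or below the median score both had a median of 4 genes in reach.

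Longer genes were reached more often, as a longer span by construction takes in more sequence. Among protein-coding genes 1459 of 2711 (53.8%, interval 51.9 to 55.7%) had a peak within 10 kb. Among the 678 with the longest spans (median 10.8 kb) 67.6% were reached (63.9 to 71.1%), against 45.0% (41.2 to 48.8%) among the 678 with the shortest (median 0.743 kb). Long noncoding RNA genes were reached in 154 of 435 cases (35.4%, 30.9 to 40.1%), and microRNA genes in 15 of 31 (48.4%, 30.2 to 66.9%). Not all short noncoding classes were below the background. Antisense RNA genes, with a median span of 0.929 kb, were reached in 64 of 107 cases (59.8%, 49.9 to 69.2%). The share of small nucleolar RNA genes, given below, was also above 51.7%. Among the microRNA genes mir-282 had the most peaks, 4 with scores up to 61.1. Near mir-ban, the growth-promoting bantam gene, there were 2 with scores up to 19.3. The annotated microRNA genes are short, with a median span of 0.098 kb. Peaks farther along any longer transcript were not counted for them. At least 3 peaks were in reach of 256 of the 3429 genes (7.47%).

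Early genes of the ecdysone response were among the genes of the arm with most peaks. Eip74EF came first with 17 and Eip75B next with 13, while ftz-f1 tied at 10 with Pdp1, which is not in the ecdysone list. Ecdysone is the steroid that triggers moulting and metamorphosis, and its early genes encode transcription factors that pass the signal on. Of the 14 listed genes of this response on 3L, 12 had a peak within 10 kb (85.7%, interval 57.2 to 98.2%), against 51.7% of all 3L genes. The list's genes are long, with a median span of 15.5 kb against 1.63 kb for all 3L genes, and longer spans are reached more often. A peak at or above the arm's median score lay within 10 kb of 11 of the 14, against 33.8% of all 3L genes. Within 10 kb of the list's genes there were 57 different peaks in 0.689 Mb, or 82.7 per Mb, against 28.2 per Mb around the whole set of 3L genes.

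Eip74EF had 17 peaks within 10 kb, from 17550173 to 17612625, and 7 of them scored over 100. Their scores had a minimum of 14.0, a median of 79.4 and a maximum of 160.2, so the median was above the upper quartile of the arm (56.8). Its span of 60.7 kb is long, and the number of peaks per 10 kb of span and reach was 2.11, against 0.273 over the arm. Eip74EF was picked for its number of peaks. Some shorter genes had higher densities, among them fwe at 2.28 and the noncoding RNA gene CR43337 at 2.77. Of the 17 Eip74EF peaks 7 also fell within 10 kb of CycT, which encodes the cyclin of the elongation factor P-TEFb. CycT had 9 peaks in all, or 3.36 per 10 kb. Nedd4, listed below, shared 1 of its 5 peaks with Eip74EF.

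Eip75B, the gene of a nuclear receptor that binds heme, had 13 peaks from 17958187 to 18072632. Its scores were lower, with a minimum of 7.99, a median of 15.7 and a maximum of 136.5, and 1 peak scored over 100. Its span of 113.7 kb gave 0.972 peaks per 10 kb. The peaks of Eip75B were thus many but mostly weak and narrow, with a median width of 296 bp against 678 bp at Eip74EF. At ftz-f1 there were 10 peaks from 18749971 to 18807658 with a minimum of 12.1, a median of 30.2 and a maximum of 278.4. The noncoding RNA gene CR45939 was reached by 7 of the same 10 peaks.

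The rest of the ecdysone list had fewer peaks. Without Eip74EF, Eip75B and ftz-f1, 9 of 11 were reached, by 17 different peaks at 42.1 per Mb. ImpL2, which encodes a secreted antagonist of insulin-like peptides, had 4 peaks with scores of 72.0, 48.1, 71.9 and 140.3, all above the arm's median. Hr78, a nuclear receptor gene, had 3, and its strongest scored 119.7. Eip78C, another nuclear receptor gene, also had 3, none above 30.1. The zinc finger gene Blimp-1, which acts in the timing of pupation, had 2 peaks with a highest score of 33.5. Eip63E, a cyclin-dependent kinase gene, had 2, and ImpE2 shared the stronger of them, at 121.7. MsrA, known before as Eip71CD, had 1 peak at 105.3, and ImpE1 had 1 at 30.9. The ecdysone synthesis gene dib had 1 peak at 16.2. ImpL1 and Ldh had none within 10 kb, and both had at least 1 within 20 kb, as did 69.7% of all 3L genes.

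In all, 9 genes had at least 7 peaks within 10 kb. Beside Eip74EF, Eip75B, ftz-f1, CycT and CR45939 these were Pdp1, Tet, the noncoding RNA gene CR43334 and nmo, a kinase gene of Wingless signalling. Pdp1 had 10 peaks with a median score of 18.1 and a maximum of 192.5. Tet, the fly relative of the TET dioxygenases, had 7 in a span of 93.0 kb, with a median of 13.9 and a maximum of 135.8. CR43334 had 7 as well, with a median of 16.5 and a maximum of 180.5. The 7 peaks of nmo all scored below the arm's median, with a median of 12.8 and a maximum of 15.0.

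**Figure D4:**
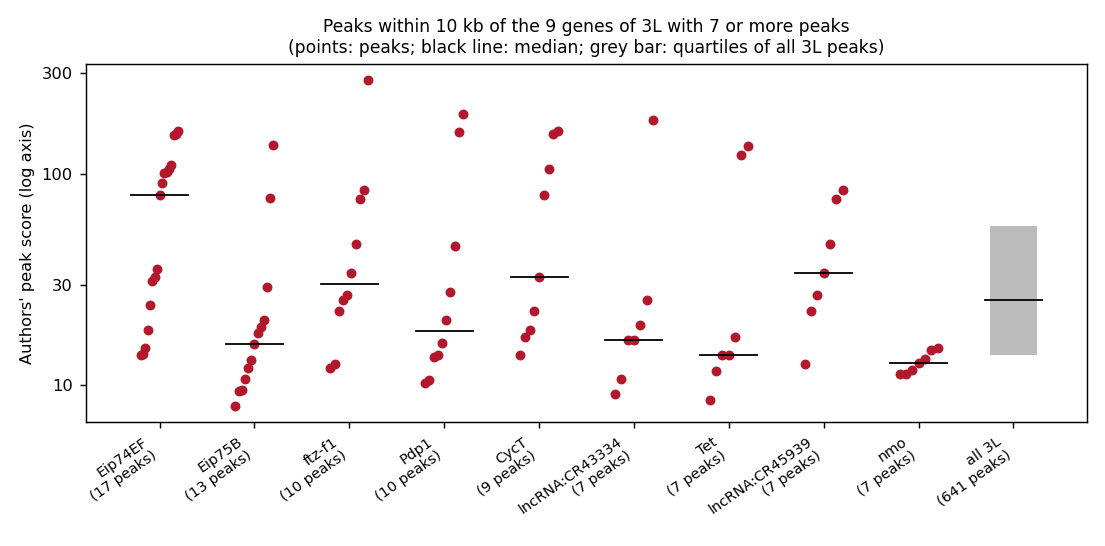
Points are the scores (log axis) of the peaks within 10 kb of each of the 9 genes of 3L with 7 or more peaks, black lines are medians, and the grey bar gives the quartiles of all 641 peaks of 3L. The median at Eip74EF, 79.4, is above the grey bar, while those of Eip75B (15.7), Pdp1 (18.1), CR43334 (16.5), Tet (13.9) and nmo (12.8) are below the arm's median of 25.3.

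Of the 6 Notch pathway genes on the arm 4 were reached (66.7%, interval 22.3 to 95.7%), by 8 different peaks at 43.5 per Mb. The place of this share above the background of 51.7% did not hold in other settings. Within 20 kb the same 66.7% were reached, against 69.7% of all 3L genes. Peaks at or above the arm's median score reached 33.3%, against 33.8%. mib1, a ubiquitin ligase gene for Notch ligands, had 1 peak with a score of 148.1. Nedd4, which encodes a ubiquitin ligase that acts on Notch itself, had 5 peaks with scores of 27.1, 18.9, 16.9, 22.6 and 79.4. lqf, the epsin gene needed for ligand uptake, and Bre1, a histone H2B ubiquitin ligase gene, had 1 peak each at 18.7 and 23.4. Psn, which encodes the protease subunit that cuts Notch, and fng, which encodes the sugar transferase that tunes its ligand choice, had none within 10 kb or 20 kb. Among relatives of the E(spl) genes and Bearded genes 3 of 7 were reached (42.9%, interval 9.90 to 81.6%). The gene hairy (hry in the table), a repressor of neural fate, had 1 peak at 24.1. emc, the gene of an inhibitor of proneural proteins, had 1 at 38.2. sens, a zinc finger gene of sensory organ precursors, had 1 at 10.8. The Bearded family genes Brd, Tom, Ocho and BobA had none within 20 kb.

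Among transcription factors of patterning 16 of 26 were reached (61.5%, interval 40.6 to 79.8%), mostly by 1 or 2 peaks. Their median span was 8.33 kb, against 1.63 kb for all 3L genes. Peaks around them came to 28.6 per Mb, close to the 28.2 per Mb around all 3L genes. bab1, a gene of leg and abdomen patterning, had 3 with a highest score of 58.0. Ets65A, an ETS gene, had 2 with a highest score of 115.8. trh, the tracheal regulator gene, had 2 with a highest score of 79.7. mirr had 1 peak at 97.1, while ara and caup, the other genes of the Iroquois complex, had none within 20 kb. knrl had 1 at 63.7 and its relative kni none. klu had the highest scores of this list, with the peaks at 258.2 and 214.8 described above. The 10 unreached genes were Awh, Doc2, Doc3, Sox21a, ara, bin, caup, exex, eyg and kni.

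In EGF receptor signalling the feedback inhibitors carried the strongest peaks. sty, which encodes the intracellular inhibitor Sprouty, had 4 peaks at 11.0, 13.5, 208.6 and 92.2. aos, which encodes the secreted inhibitor Argos, had 4 at 146.1, 19.7, 9.91 and 30.4. The ligand genes Krn and vn had 2 peaks each, with highest scores of 54.9 and 27.1. The protease genes rho, ru and stet and the gene Ras64B had none. Thus 4 of 8 genes were reached within 10 kb (50.0%, interval 15.7 to 84.3%), close to the background of 51.7%. Within 20 kb the share was 62.5%, against 69.7% of all 3L genes. With peaks at or above the arm's median score alone it was 50.0%, against 33.8%. Peaks around the list's genes, of median span 13.7 kb, came to 46.3 per Mb, against 28.2 per Mb around all 3L genes.

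In Wingless signalling 7 of 8 genes were reached (87.5%, interval 47.3 to 99.7%), but their spans are long, with a median of 52.7 kb. Peaks around them came to 29.3 per Mb, close to the 28.2 per Mb around all 3L genes. nmo had the 7 low peaks given above. dlp, a glypican gene, had 2 with a highest score of 205.6. nkd, a feedback inhibitor gene, had 2 up to 47.5, dally, the other glypican gene, 2 up to 18.5 and Notum, the gene of a secreted feedback inhibitor, 2 up to 17.7. The receptor genes fz and fz2 had 1 each at 16.7 and 36.4, and wls had none.

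Insulin and TOR signalling genes were reached in 5 of 11 cases (45.5%, interval 16.7 to 76.6%). Beside ImpL2, these were slif with the peak at 209.6, path, an amino acid transporter gene, at 104.1, the kinase genes Pdk1 at 31.3 and S6k with 2 peaks up to 27.1. The 5 insulin-like peptide genes Ilp1 to Ilp5 and gig had none within 10 kb. Both peaks of S6k were also the peaks of vn. Of the 6 cell death genes 2 were reached (33.3%, 4.33 to 77.7%), Diap1 and hid, whose peak scored 16.3. Of those not reached, rpr, grim and skl lay together in the longest stretch without a peak, and Dronc in the second longest. The interval treats such neighbours as independent genes.

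Chromatin regulator genes were reached in 12 of 15 cases (80.0%, interval 51.9 to 95.7%), by 23 different peaks. Their median span was 5.28 kb, against 1.63 kb for all 3L genes. Chro had 3 peaks up to 209.6, and dre4, the gene of a subunit of the histone chaperone FACT, had 3 up to 117.7. E(bx) and Mi-2, genes of chromatin remodellers, had 3 each, up to 70.8 and 62.6. Trl, which encodes the GAGA factor, had 3 at 9.41, 38.4 and 12.1. The Polycomb group genes Su(z)12, E(z), Pc and Jarid2 had highest scores of 62.6, 61.3, 44.7 and 104.1. Su(z)12 and Mi-2 shared the peak at 62.6, Jarid2 shared its peak with path, and Chro shared the peak at 209.6 with slif. The histone chaperone gene asf1 reached 75.1, Bre1 23.4 and the deacetylase gene HDAC1 21.4. Nelf-E, ash1 and brm had no peak within 10 kb.

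Heat shock genes were reached in 8 of 10 cases (80.0%, interval 44.4 to 97.5%), but these lie close together and shared their peaks. Around all 10 genes there were 7 different peaks. Near Hsp22, Hsp23, Hsp26, Hsp67Ba, Hsp67Bc and CG4456 (matched from the older name Hsp67Bb) the highest score was 27.0, and near Hsp27 it was 27.2. DnaJ-1, a co-chaperone gene elsewhere on the arm, had 3 peaks at 15.7, 152.3 and 8.94. Hsp83 and Hsc70-1 had none within 10 kb.

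Ribosomal protein genes were reached in 9 of 13 cases (69.2%, interval 38.6 to 90.9%). RpL28 had 3 peaks up to 102.2. RpL8, RpS12 and RpL10 had 2 each, up to 138.2, 105.4 and 66.9, and RpL18 had its 1 peak at 221.1. RpL14, RpL23A, RpL26 and RpS9 had none. Transfer RNA genes were reached in 25 of 48 cases (52.1%, interval 37.2 to 66.7%), near the background of 51.7%, by 13 different peaks. Small nucleolar RNA genes were reached in 29 of 47 (61.7%, 46.4 to 75.5%), by 17 peaks.

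Cuticle, chemosensory, and glue and puff genes had shares below the arm's 51.7% within 10 kb, with intervals that include it. So did other lists above, such as cell death and insulin and TOR signalling. For cuticle, glue and puff genes the direction depended on the setting. Their median spans were short, 0.77 kb for cuticle and 0.56 kb for glue and puff genes, against 1.63 kb for all 3L genes. Shorter protein-coding genes were reached less often. Peaks came to 28.2 per Mb around cuticle genes and 25.8 around chemosensory genes, against 28.2 around all 3L genes. Around glue and puff genes the density was higher, from 2 different peaks. Cuticle protein genes had a peak within 10 kb in 18 of 46 cases (39.1%, interval 25.1 to 54.6%), from 11 different peaks. Within 20 kb their share was 76.1%, against 69.7% of all 3L genes, and with peaks at or above the median score alone it was 39.1%, against 33.8%. Chemosensory receptor and odorant-binding genes had one in 15 of 37 (40.5%, 24.8 to 57.9%). Of the glue genes and the genes of the 71E puff, which salivary glands use at the end of larval life, 5 of 14 were reached (35.7%, 12.8 to 64.9%). Within 20 kb the share was 85.7%, against 69.7% of all 3L genes. The glue genes Sgs3, Sgs7 and Sgs8 shared 1 peak of score 164.5, and Eig71Ea and Eig71Eb shared 1 of score 20.8. The other 9 genes of the puff list, Eig71Ec to Eig71Ek, had none within 10 kb.

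**Figure D5:**
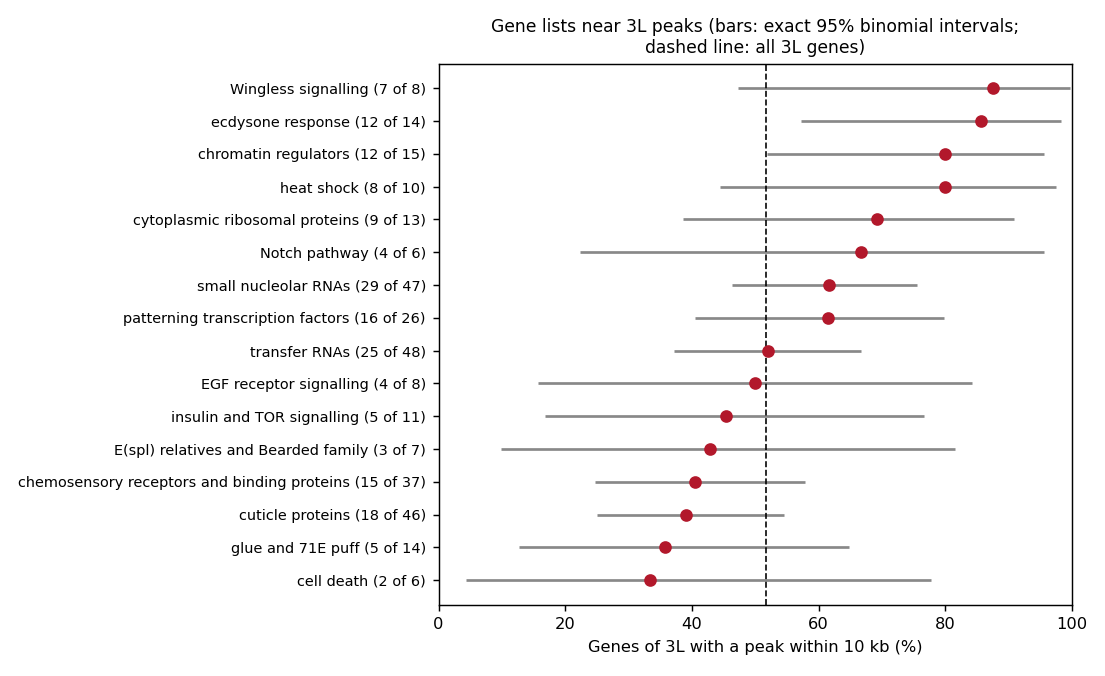
For each of 16 gene lists the point is the share of its 3L genes with a peak midpoint within 10 kb (%), with exact 95% binomial intervals and, in brackets, the number reached of the number on 3L; the dashed line is the share over all 3L genes, 51.7%. The intervals of the ecdysone response (from 57.2%) and of the chromatin regulators (from 51.9%) lie above the line, and the other 14 cross it. The intervals treat genes as independent, the lists were chosen with earlier results known, and the line is not matched for gene span.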

How the data were processed

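Per the file headers, the coordinates are on FlyBase release 5 and the peaks come from MACS. The submitters' processing notes name MACS2, BWA and CASAVA (1.7.0.2 and 1.7.0.3), without settings. The score of each peak and its first and last base (other values, positions counted from 1) are as the authors deposited them. The sources used here do not state pooling of replicates, use of input or threshold. With 2 ChIP and 2 input libraries behind 1 list, no replicate error exists.

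Peaks with a midpoint up to 23500000 on 3L were taken. Midpoints closer than 5 kb were joined into groups. Genes came from the RefSeq table of release 6, with a reach of 10 kb, and listed genes were matched by symbol or by a synonym of a single gene. Named regions were the 10 highest scored and 3 widest peaks, the 5 groups with most peaks, the most crowded windows, the 3 longest gaps, the 8 genes with most peaks and list members. Windows and genes tied for a place are all given. The members and lists were chosen with earlier results of these data known, and 3 lists (cuticle proteins, patterning transcription factors, ecdysone response) were corrected for misplaced genes after a first count. skd, the microRNA genes and further genes of the longest gaps were named after their values were seen. Binomial intervals are Clopper-Pearson, and those of medians are from order statistics. The grouping, reach and shift counts were tested on 20 simulated lists and recovered the planted answer in 20, 20 and 20. The planted groups were spaced to fall clearly on either side of 5 kb, and the shift lists held only as many gene ends as peaks. This checks the counting, and not how well groups or shifts are found in these data. Scripts ran on Python 3.11.15 with scipy 1.17.1, numpy 2.4.6 and pandas 2.3.3.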

Additional observations from a re-analysis of the deposited data

How the results depend on the processing

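No paired analysis was possible because values of single libraries are missing from the peak list, which also meant that replicates could not be left out in turn. Of 80 values under alternatives, 48 stayed within their interval, within 1.5 times of a count or, for the shifts, within 0.5 kb, and 32 moved. Some moves follow from the setting itself, since a score filter lowers the density and a wider reach takes in more genes. The intervals of small lists are wide and leave little room to move. The tally is therefore no measure of how firm the results are. With the 3L peaks at or above the median score alone the density was 13.7 per Mb, the median width 722 bp, rho 0.459, and 37 groups held 26.8% of the peaks. The same filter left 33.8% of genes reached. Merging peaks with gaps under 1 kb gave 23.7 regions per Mb, a median width of 520 bp and 64 groups with 26.4% of regions. The ratio of the density on 3L to that on the other large arms was 0.879, 0.884 with the higher scored peaks on both sides and 0.920 after merging. The block of tandem peaks on 2L was kept in each of these ratios. Joining at 2 kb gave 69 groups with 25.0% of peaks, and joining at 10 kb put 60.4% of peaks in groups. The largest number of peaks in a window was 46 against a median of 27 in windows of 1 Mb, and it was 3.17 times the median in windows of 500 kb. With a reach of 5 kb 34.5% of genes were reached, and with 20 kb 69.7%. A reach of 5 kb is below the best shift between releases in the 4 later sections of the arm, so it says little of single genes. Of the 16 lists 9 were above the share of all genes, against 9, 9 and 10 under the alternatives. The lists above it in all 4 settings numbered 7, those below it in all numbered 3, and 6 changed side in at least 1. The Notch pathway list and the transfer RNAs were above it in the main setting and below it in all 3 others. The lists of EGF receptor signalling, insulin and TOR signalling and cuticle proteins changed side in 2 of 3, and the glue and puff genes in 1. Library depth is unknown, and it was not estimated which gaps deeper sequencing would fill.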
